A study of Mus musculus with 20 samples.

Results

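The 8 genes described here encode transcription factors and an antiproliferative adaptor that are associated with the resting state of T lymphocytes: the forkhead factors *Foxo1*, *Foxo3*, *Foxo4* and *Foxp1*, the zinc finger factors *Klf3* and *Klf13*, the basic leucine zipper repressor *Bach2* and the BTG/TOB family member *Tob1*. They were taken by their gene symbols from an RNA-seq table of 39179 mouse genes, in which each of the 8 symbols matched 1 gene, and all 8 passed the filter on low values. FOXO proteins are held in the nucleus while PI3K-AKT signaling is low and are phosphorylated by AKT and exported when it is high. In naive T cells FOXO1 maintains transcription of genes for survival and homing, FOXP1 keeps cells from leaving quiescence, and BACH2 restrains effector genes. KLF3 represses transcription together with the corepressor CtBP, and TOB1 links target mRNAs to the CCR4-NOT deadenylase.

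The table covers 20 samples of 5 groups, all on the C57BL/6 background. Id2-/-Id3-/- CD4 single-positive (CD4SP) thymocytes (3 samples) are labelled as double knockouts of *Id2* and *Id3*, which encode inhibitors of the E proteins, the basic helix-loop-helix factors that bind E-box DNA. By the study's methods the donors carried floxed Id2 and Id3 alleles (Id2 fl/fl Id3 fl/fl), were 8 wk old, and expressed IL7Rα-Cre, which deletes from the common lymphoid progenitor stage, so that all lymphocytes of these mice and not T cells alone are targeted. Sorted Id2/Id3-deficient lymphomas (6 samples) came by label from 4 lymph nodes, 1 spleen and 1 thymus, with 4 labelled CD4+ and 2 labelled CD8+. Their Cre driver and age were not given in the sources used here. Follicular helper T (TFH) cells (3 samples) were sorted as CXCR5+CD44hi CD4 T cells; the donors were wild type, had been given sheep red blood cells, and the organ was the spleen. CD4SP thymocytes labelled Id3-/- (3 samples) and control CD4SP thymocytes (5 samples) were 8 wk old. The labels call the controls wild type, whereas the study's text also names Id3+/- and littermate animals as controls. CD4SP samples were sorted as CD4+TCRβ+CD8- cells.

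Only the authors' average of normalized counts for each group was analysed, so no value below carries an SD, an interval or a p-value. Whether a difference exceeds the spread between samples was not tested here, since the averages alone do not show that spread, and the depth of the libraries is unknown. Ratios are on the log2 scale of (average + 1), and a gene is called higher or lower past 2-fold among the 15536 genes that averaged 10 or more in any group. Summed over all genes, the averages ranged between 13386015 in TFH cells and 15497262 in lymphomas. *Id2* averaged 6.82 in Id2-/-Id3-/- cells and 30.5 in lymphomas, against 2293 in controls. *Id3* averaged 879.7 in Id2-/-Id3-/- cells and 857 in lymphomas, against 1991 in controls, so that *Id2* was nearly absent while *Id3* RNA was lower but not lost. How much of that *Id3* RNA came from the deleted allele cannot be seen in gene-level averages. In the samples labelled Id3-/- *Id3* averaged 2649.7, higher than the 1991 of controls, so the label was not borne out by this gene-level value and these samples are called by their label throughout. In bulk samples fewer cells of a type and less RNA per cell cannot be told apart.

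The groups also differed in sex-linked RNAs. *Xist*, the RNA that coats the inactive X chromosome, averaged 19.7 in Id2-/-Id3-/- cells, 10477 in lymphomas, 9909 in TFH cells and 5060.0 in the samples labelled Id3-/-, against 10461 in controls. The Y-linked gene *Ddx3y* averaged 1478 in Id2-/-Id3-/- cells, 8.04 in lymphomas, 533 in TFH cells and 1402 in the samples labelled Id3-/-, against 663 in controls. The sex of the donors is not given in the labels. A difference in sex cannot be told apart from genotype or group in any ratio between these groups. *Foxo1*, *Foxp1*, *Klf3* and *Bach2* were low both in Id2-/-Id3-/- cells and in lymphomas, and the part of sex in these values was not tested.

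The promoters of *Foxo1*, *Foxp1*, *Klf3* and *Bach2*, which all had low averages in Id2-/-Id3-/- cells and lymphomas, are shown for the E-boxes they hold, since E proteins bind that motif and Id proteins, which bind no DNA themselves, keep them from it. The windows run from 250 bases before to 50 bases after an annotated start (RefSeq, GRCm38.p6) and are written 5′ to 3′ on the gene's strand, with each E-box, CANNTG read on both strands, in capitals. For *Foxp1* the second and the last of its 3 annotated windows are printed. The *Foxo1* window is chr3:52268087-52268386 on the plus strand, the *Foxp1* windows are chr6:99266466-99266765 and chr6:99028249-99028548 on the minus strand, the *Klf3* window is chr5:64803271-64803570 on the plus strand and the *Bach2* window is chr4:32417185-32417484 on the plus strand.
Foxo1: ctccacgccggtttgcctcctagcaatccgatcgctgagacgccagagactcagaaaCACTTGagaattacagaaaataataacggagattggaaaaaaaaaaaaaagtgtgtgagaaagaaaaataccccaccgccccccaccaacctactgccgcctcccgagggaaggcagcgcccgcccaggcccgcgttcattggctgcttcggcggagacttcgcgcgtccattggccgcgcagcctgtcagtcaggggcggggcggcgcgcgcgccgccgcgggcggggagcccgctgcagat
Foxp1 second window: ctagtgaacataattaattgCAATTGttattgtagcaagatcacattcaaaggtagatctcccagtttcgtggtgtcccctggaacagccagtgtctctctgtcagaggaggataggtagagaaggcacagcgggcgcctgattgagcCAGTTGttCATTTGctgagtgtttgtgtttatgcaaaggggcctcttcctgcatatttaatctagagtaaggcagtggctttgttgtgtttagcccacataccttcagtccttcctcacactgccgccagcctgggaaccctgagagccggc
Foxp1 last window: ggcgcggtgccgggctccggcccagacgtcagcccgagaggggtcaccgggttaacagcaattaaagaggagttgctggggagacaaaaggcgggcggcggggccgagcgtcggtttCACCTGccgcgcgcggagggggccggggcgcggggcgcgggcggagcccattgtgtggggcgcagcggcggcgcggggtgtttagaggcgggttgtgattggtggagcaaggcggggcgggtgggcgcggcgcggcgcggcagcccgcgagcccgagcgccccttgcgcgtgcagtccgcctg
Klf3: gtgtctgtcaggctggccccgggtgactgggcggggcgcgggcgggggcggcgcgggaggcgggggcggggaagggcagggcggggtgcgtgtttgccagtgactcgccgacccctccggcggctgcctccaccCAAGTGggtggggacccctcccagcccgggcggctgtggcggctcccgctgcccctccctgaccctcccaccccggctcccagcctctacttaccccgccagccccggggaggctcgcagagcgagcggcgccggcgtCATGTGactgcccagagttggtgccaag
Bach2: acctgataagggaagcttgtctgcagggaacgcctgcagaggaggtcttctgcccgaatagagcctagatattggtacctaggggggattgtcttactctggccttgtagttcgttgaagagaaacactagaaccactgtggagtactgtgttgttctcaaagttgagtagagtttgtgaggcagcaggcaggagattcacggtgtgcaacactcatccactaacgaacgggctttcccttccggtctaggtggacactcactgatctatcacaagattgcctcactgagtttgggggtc

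The *Foxo1* window held 1 E-box, the printed *Foxp1* windows held 3 and 1, and the *Klf3* window held 2, while the *Bach2* window held 0. The *Foxp1* window that is not printed, chr6:99520944-99521243, held 1. Of the other genes matched, the *Foxo3* and *Tob1* windows held 0 and the *Klf13* window held 1. The *Bach2* window and all 3 *Foxp1* windows lie inside the annotated spans of these genes, at internal starts. No window covered the start of the annotated *Bach2* span, chr4:32238804, or of the *Foxp1* span, chr6:99522721, so E-boxes there were not examined. Of 32851 promoter windows of the same length, 72.3% held at least 1 CANNTG. The form CAGGTG, which belongs to CANNTG, was found once, on the opposite strand of the last *Foxp1* window, against 20.2% of all windows. The form CAGCTG was in none of the 9 windows of the 7 genes matched, against 16.3% of all windows. The FOXO motif GTAAACA was also in none of them, against 3.65%. A match is a description of these letters only.

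In the gene annotation (GENCODE M21, GRCm38) *Foxo1* spans chr3:52268336-52353221, *Foxo3* chr10:42181841-42276755, *Foxo4* chrX:101254528-101260873, *Foxp1* chr6:98925338-99522721, *Klf3* chr5:64803388-64832901, *Bach2* chr4:32238804-32586108, *Tob1* chr11:94211454-94215495 and *Klf13* chr7:63886351-63938915. All 8 are protein-coding. *Foxo1*, *Foxp1*, *Klf3* and *Bach2* overlap other annotated genes on the same strand, such as *C230096K16Rik* at *Klf3* and *Bach2it1* at *Bach2*, and the counting could have split reads among them. The libraries were strand-specific, and antisense genes such as *Bach2os* are annotated as well.

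*Foxo1*, the main FOXO gene of T cells, averaged 843 normalized counts in Id2-/-Id3-/- CD4SP cells, 913 in lymphomas, 3225 in TFH cells and 2704 in the samples labelled Id3-/-, against 4103 in controls. The mutant CD4SP cells and the lymphomas lay close together and the other groups lay above them, with a 2.96-fold step between the lymphomas and the samples labelled Id3-/-. The log2 ratio to controls was -2.28 in Id2-/-Id3-/- cells, and 286 of the 15536 genes had a lower one. In lymphomas it was -2.17, and 908 genes had a lower one.

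*Foxo3* averaged 605 in Id2-/-Id3-/- cells, 803 in lymphomas, 1222 in TFH cells and 1261 in the samples labelled Id3-/-, against 1247 in controls. The last 3 of these averages were nearly equal. *Foxo4*, which lies on the X chromosome, averaged 371 in Id2-/-Id3-/- cells, 482 in lymphomas, 767 in TFH cells and 712 in the samples labelled Id3-/-, against 810.3 in controls. The log2 ratios to controls were -1.04 for *Foxo3* and -1.12 for *Foxo4* in Id2-/-Id3-/- cells, and -0.63 and -0.75 in lymphomas, which did not reach 2-fold. The 522 X-linked genes kept had a median log2 ratio of -0.0035 in Id2-/-Id3-/- cells over controls, with 11.5% of them 2-fold or more lower, and *Xist* had one of -8.98.

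Divided by the length of the gene's merged exons, the 3 FOXO averages summed to 284 counts per kb in Id2-/-Id3-/- cells and 349.8 in lymphomas, against 871 in controls. *Foxo1* held 34.3% of that sum in Id2-/-Id3-/- cells, 30.1% in lymphomas, 49.4% in TFH cells and 45.7% in the samples labelled Id3-/-, against 54.4% in controls. *Foxo4* held 37.5% in Id2-/-Id3-/- cells and 39.6% in lymphomas, against 26.7% in controls. Per kb, *Foxo1* was thus the highest of the 3 FOXO genes in controls and *Foxo4* the highest in the mutant cells and lymphomas, though *Foxo4* also averaged less there than in controls.

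*Foxp1*, a forkhead repressor of a separate subfamily, averaged 1211 in Id2-/-Id3-/- cells, 1301 in lymphomas, 3103 in TFH cells and 3497 in the samples labelled Id3-/-, against 4343 in controls. As for *Foxo1*, a step separated the lymphomas from the remaining groups, here of 2.39-fold up to TFH cells. The log2 ratio to controls was -1.84 in Id2-/-Id3-/- cells and -1.74 in lymphomas, with smaller ones of -0.48 in TFH cells and -0.31 in the samples labelled Id3-/-. *Foxp1* has 31 annotated transcripts, which the gene-level averages do not separate.

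*Klf3* averaged 219.9 in Id2-/-Id3-/- cells, 255 in lymphomas, 2112 in TFH cells and 1284 in the samples labelled Id3-/-, against 809 in controls. It had the widest range of the 8 genes, 9.60-fold between its highest and lowest groups, and it was the only one of them whose highest average was in TFH cells. The log2 ratio to controls was -1.88 in Id2-/-Id3-/- cells and -1.66 in lymphomas, but 1.38 in TFH cells. Set directly against TFH cells, Id2-/-Id3-/- cells had a *Klf3* ratio of -3.26, with 223 of 15536 genes lower.

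*Bach2* averaged 591 in Id2-/-Id3-/- cells, 543 in lymphomas, 473 in TFH cells and 2959.6 in the samples labelled Id3-/-, against 4082 in controls. Unlike *Foxo1*, *Foxp1* and *Klf3*, it was low in TFH cells as well, and a 5.01-fold step separated those 3 groups from the CD4SP samples labelled Id3-/-. The log2 ratio to controls was -2.79 in Id2-/-Id3-/- cells, -2.91 in lymphomas and -3.11 in TFH cells. In Id2-/-Id3-/- cells 165 genes, in lymphomas 507 genes and in TFH cells 164 genes had a lower ratio than *Bach2*.

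*Klf13*, known in T cells as an activator of *Ccl5*, averaged 3928 in Id2-/-Id3-/- cells, 4918 in lymphomas, 4531 in TFH cells and 7431 in the samples labelled Id3-/-, against 7821 in controls. Its log2 ratio of -0.99 in Id2-/-Id3-/- cells lay just short of 2-fold, next to *Foxo3* just past it. *Tob1* averaged 779 in Id2-/-Id3-/- cells, 1039 in lymphomas, 605 in TFH cells and 608 in the samples labelled Id3-/-, against 512 in controls. It was the only one of the 8 with its lowest average in controls, and its log2 ratio was 0.60 in Id2-/-Id3-/- cells and 1.02 in lymphomas. *Klf13* had the highest average per kb of the 8 in Id2-/-Id3-/- cells (522) and in controls (1038), whereas *Tob1* was the next in Id2-/-Id3-/- cells (340.3) and the sixth in controls (224).

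**Figure D1:**
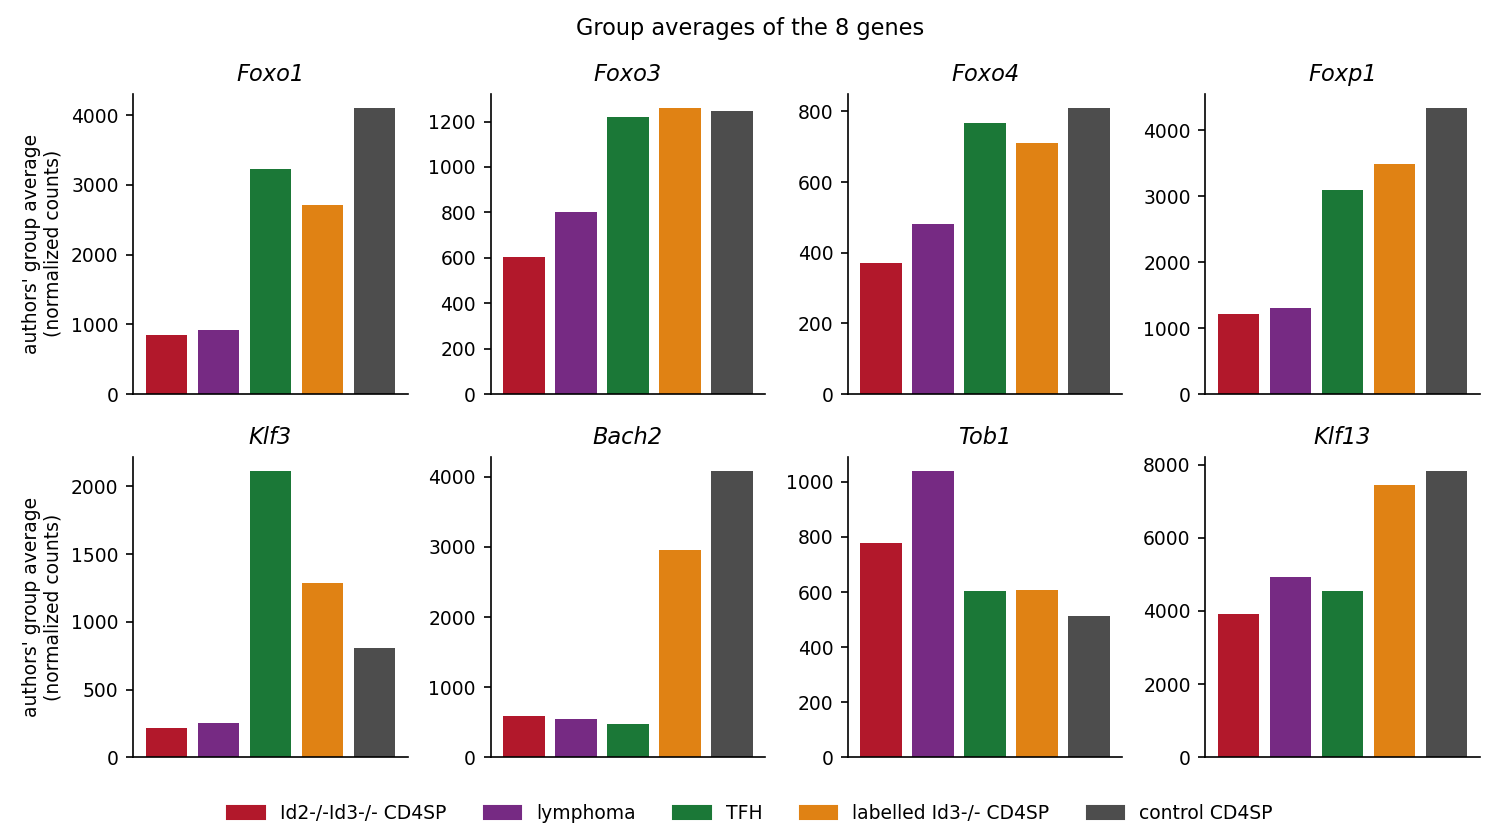
Authors' group averages of the 8 genes in normalized counts, 1 panel per gene with its own axis from 0; each bar is 1 group, in the order Id2-/-Id3-/- CD4SP cells, lymphomas, TFH cells, CD4SP samples labelled Id3-/- and control CD4SP cells. No error bars can be drawn from averages; *Bach2* is low in the first 3 groups and *Klf3* is highest in TFH cells, at 2112.

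The first comparison asked how the 8 genes stood in Id2-/-Id3-/- CD4SP cells relative to control CD4SP cells. *Foxo1*, *Foxo3*, *Foxo4*, *Foxp1*, *Klf3* and *Bach2*, 6 of the 8, were 2-fold or more lower, where 10.1% of all genes tested were. None was 2-fold or more higher, where 14.1% of all genes were. *Klf13* and *Tob1* passed neither limit. The median log2 ratio of the 8 was -1.48 and that of all genes 0.02. The genes were chosen with these results known, so the counts describe them and are not a test.

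Cell cycle markers and *Cd4* itself also differed in this comparison. The 8 cell cycle markers had a median log2 ratio of 0.69, with *Ccnb1* (1.29) and *Cdk1* (1.16), 2 of the 8, past 2-fold higher (14.1% of all genes), and summed to 18492 in Id2-/-Id3-/- cells against 12072 in controls. *Cd4* averaged 6565 in Id2-/-Id3-/- cells and 15039 in controls, while the other 7 CD4 T cell markers stayed within 2-fold. The 8 B cell markers summed to 194 in Id2-/-Id3-/- cells and 122 in controls. Among the 6 natural killer and γδ T cell markers, *Fcer1g* averaged 269 in Id2-/-Id3-/- cells and 8.23 in controls, whereas *Nkg7* averaged 89.2 and 159.8 and *Klrb1c* 38.1 and 73.7 in these groups. *Eomes* was also higher, at 138 in Id2-/-Id3-/- cells and 37.2 in controls, and *Tyrobp* averaged 3.35 and 1.40. Without *Fcer1g* the list summed to 269 in Id2-/-Id3-/- cells and 272 in controls, with *Eomes* higher and *Nkg7* and *Klrb1c* lower within that sum. The markers of CD4+CD8+ thymocytes summed to 927 in Id2-/-Id3-/- cells and 1968 in controls, although *Arpp21* averaged 252 and 46.7. Myeloid markers summed to 219.6 and 89.1, of which *Itgam* held 181 and 69.4. Regulatory T cell markers summed to 5259.8 and 4516, with a median log2 ratio of -0.42. Of these, *Ikzf2* averaged 2607 and 1633 and *Il2rb* 1849 and 1559. *Foxp3* averaged 280.5 and 591, *Il2ra* 316 and 455 and *Ctla4* 208 and 279. The part of these markers in the values of the 8 genes was not tested.

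In lymphomas over controls, *Foxo1*, *Foxp1*, *Klf3* and *Bach2*, 4 of the 8, were 2-fold or more lower, where 17.2% of all genes were. *Tob1* was higher, where 18.2% of all genes were. The median of the 8 was -1.20. The lymphomas were a mixed group, with *Cd8a* at 1388 against 128 in controls, *Cd8b1* at 460.5 against 588 and *Cd4* at 4110.2 against 15039. The B cell markers summed to 1372 in lymphomas and 122 in controls, of which *Blk* held 802 and 11.5 and *Cd79b* 455 and 22.0. Myeloid markers summed to 511 in lymphomas and 89.1 in controls. Their cell cycle markers had a median of 1.07, with 5 of 8 past 2-fold higher (18.2% of all genes). The part of these markers in the values of the 8 genes was not tested.

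In TFH cells over controls, *Bach2* alone of the 8 was 2-fold or more lower, where 9.8% of all genes were, and *Klf3* alone was higher, where 11.8% were. The other 6 lay between -0.79 for *Klf13* and 0.24 for *Tob1*. TFH cells came from spleen and the controls from thymus, so the cell state and the tissue cannot be told apart. The 8 B cell markers summed to 1962 in TFH cells and 122 in controls, of which *Cd22* held 1421, and their part in the values was not tested.

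In the samples labelled Id3-/- over controls none of the 8 passed 2-fold in either direction, where 4.43% of all genes were lower and 5.57% higher. Among the 10730 genes that averaged 100 or more in any group, 151 were lower and 469 higher. The ratios ran between -0.60 for *Foxo1* and 0.67 for *Klf3*, and *Bach2* was at -0.46. *Eomes*, a T-box factor of natural killer and memory-like T cells, averaged 4727 in these samples and 37.2 in controls, and its part in these values was not tested. These 4 comparisons share the control samples and are therefore given side by side, not as independent repeats.

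**Figure D2:**
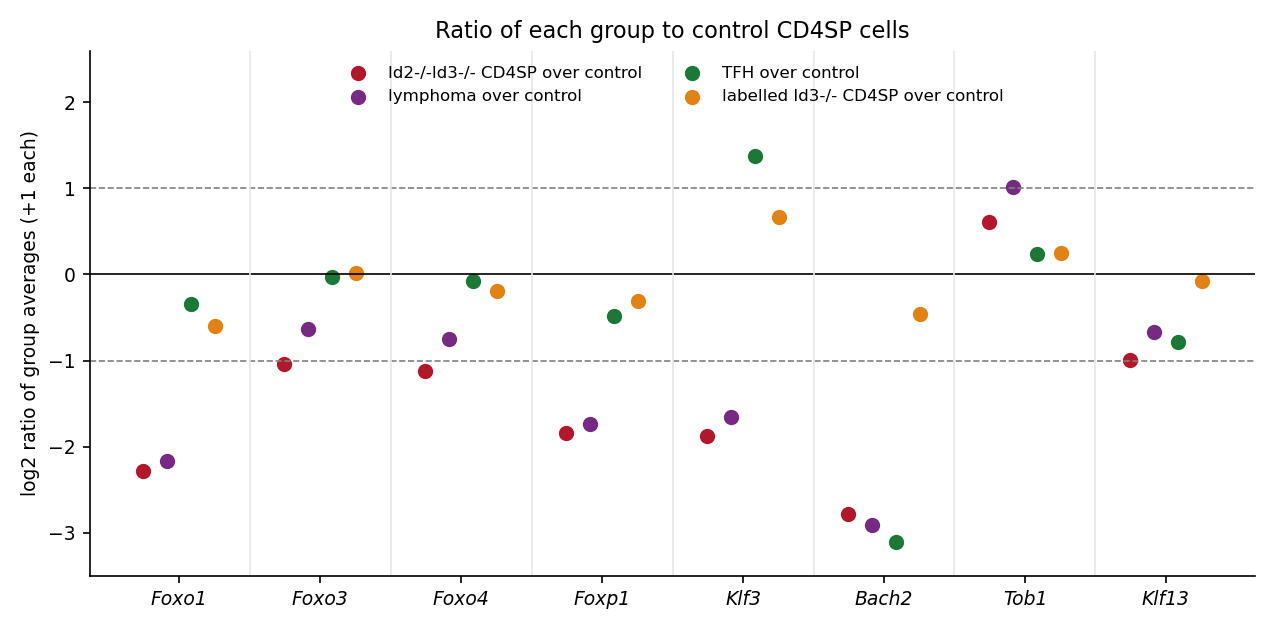
Log2 ratio of each group's average to the control CD4SP average (1 added to both) for the 8 genes; dots are, from left to right within a gene, Id2-/-Id3-/- CD4SP cells, lymphomas, TFH cells and CD4SP samples labelled Id3-/-, and dashed lines mark 2-fold. The Id2-/-Id3-/- and lymphoma dots lie side by side for every gene, within 0.42 of each other. TFH dots lie above both of them for *Foxo1*, *Foxo3*, *Foxo4*, *Foxp1* and *Klf3* but not for *Bach2*.

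Lymphomas and Id2-/-Id3-/- CD4SP cells were also compared with each other, without the controls. None of the 8 differed by 2-fold, where 14.4% of all genes were lower and 11.1% higher in lymphomas. Among the 10730 genes that averaged 100 or more in any group, as the 8 did, 768 were lower and 845 higher. The ratios ran between -0.12 for *Bach2* and 0.42 for *Tob1*, with a median of 0.27 against 0.03 for all genes. Of the 8, only *Bach2* had a ratio below 0, where 48.0% of all genes did, and the averages of the other 7 were higher in lymphomas. With the groups scaled to equal totals the median was 0.15, and *Foxo1* (-0.0030) and *Foxp1* (-0.014) lay just below 0. In Id2-/-Id3-/- cells over TFH cells, *Foxo1* (-1.93), *Foxo3* (-1.01), *Foxo4* (-1.05), *Foxp1* (-1.36) and *Klf3* (-3.26) were lower past 2-fold, where 13.1% of all genes were. None was higher, where 15.3% were. *Bach2* differed little between these groups, at 0.32.

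**Figure D3:**
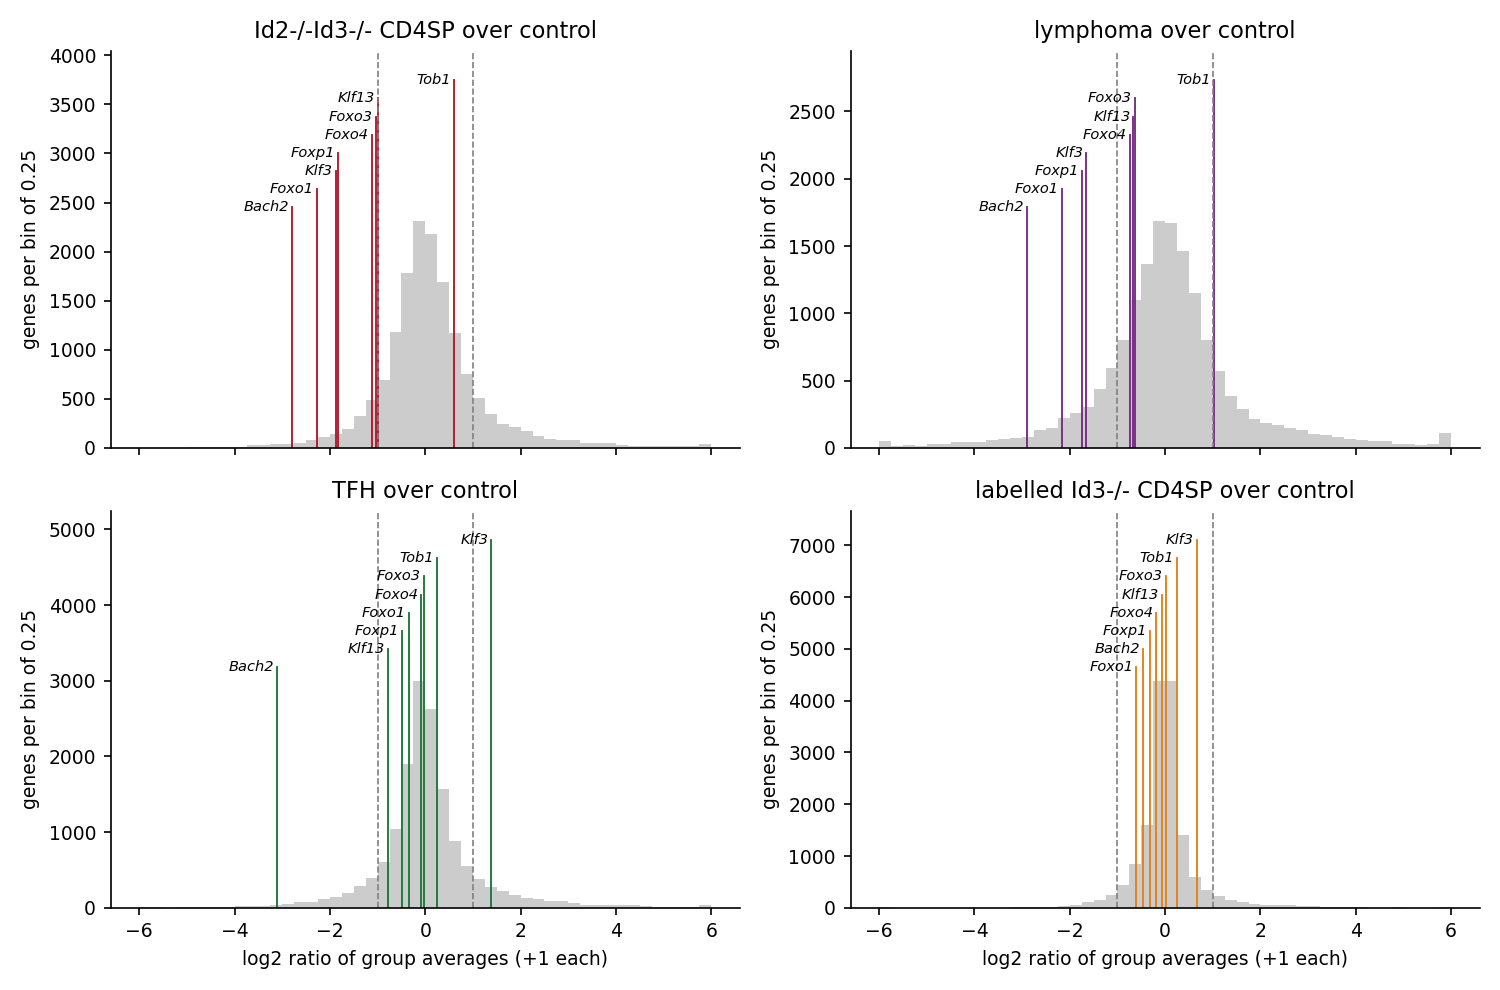
Log2 ratios of the group averages for all 15536 genes kept (grey, genes per bin of 0.25, values beyond 6 in the end bins) with the 8 genes as labelled lines, for each group over controls; line heights only separate the labels, and dashed lines mark 2-fold. In Id2-/-Id3-/- cells 7 of the 8 lie left of 0, where 48.5% of all genes do, and in the samples labelled Id3-/- all 8 lie inside the dashed lines.

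The 8 genes did not share 1 pattern over the 5 groups. By the distance between their 4 log2 ratios to controls, *Foxo3* and *Foxo4* were the closest pair (0.25) and *Foxo1* and *Foxp1* the next (0.69). *Bach2* and *Tob1* were the farthest apart (6.22). Among 10646 other genes that averaged 100 or more in any group, the nearest to *Foxo1* were *Rasa3* (0.33), which encodes a RAS GTPase-activating protein, *Klf7* (0.35), another zinc finger factor, and *Ripor2* (0.38). The nearest to *Foxp1* were *9930012K11Rik* (0.24), *Gpr171* (0.38) and *Hsdl1* (0.40). The nearest to *Bach2* were *Tbc1d16* (0.62), *Mcoln3* (0.75) and *Rasl11b* (0.81), all of them low in Id2-/-Id3-/- cells, lymphomas and TFH cells alike. Likeness here is over 5 averages only.

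The genes FOXO proteins are known to regulate in T cells were followed as a list of 18. In Id2-/-Id3-/- cells 9 of the 18 were 2-fold or more lower than in controls and 1 was higher, against 10.1% lower and 14.1% higher among all genes, with a median log2 ratio of -1.03. *Il7r*, the receptor for the survival cytokine IL-7, averaged 311 in Id2-/-Id3-/- cells, 3392 in lymphomas, 1538 in TFH cells and 4070.2 in the samples labelled Id3-/-, against 3997 in controls. *Il7r* was thus low in Id2-/-Id3-/- cells (-3.68) and near the control level in lymphomas (-0.24). *Foxo1* averaged 843 and 913 in these groups, and its part in the *Il7r* values was not tested. *Il7r* is also the locus of the Cre allele carried by the Id2-/-Id3-/- mice, and its part in the *Il7r* value was not tested.

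*Bcl2l11*, which encodes the proapoptotic protein BIM, averaged 244 in Id2-/-Id3-/- cells, 389.7 in lymphomas, 393 in TFH cells and 2122 in the samples labelled Id3-/-, against 1622 in controls. *Ccr7*, the chemokine receptor for T cell zones, averaged 2152 in Id2-/-Id3-/- cells, 1108 in lymphomas, 1588 in TFH cells and 6269 in the samples labelled Id3-/-, against 8653 in controls. Both were past 2-fold lower in all 3 of the first groups. *Foxo1* was past 2-fold lower in 2 of these, and its part in the values was not tested. In lymphomas 10 of the 18 targets were lower and 2 higher (all genes 17.2% and 18.2%), with a median of -1.10. In TFH cells 5 were lower and 2 higher (all genes 9.8% and 11.8%), with a median of -0.36. The counts of higher targets were thus not above the shares of all genes. In the samples labelled Id3-/- none of the 18 passed 2-fold. *Gabarapl1*, an autophagy gene and the 1 target that was higher in Id2-/-Id3-/- cells (1.49), was chosen for mention after its values were seen.

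Of 12 genes for kinases and other regulators of FOXO proteins, 1 was higher and 1 lower past 2-fold in Id2-/-Id3-/- cells, a share below that of all genes in each direction (14.1% and 10.1%). *Sgk1*, a kinase that phosphorylates FOXO proteins at sites shared with AKT, averaged 1258 in Id2-/-Id3-/- cells and 9081 in lymphomas, against 548 in controls, with log2 ratios of 1.20 and 4.05. Its relative *Sgk3* was lower in Id2-/-Id3-/- cells (-1.60). *Skp2*, which targets FOXO1 for degradation, was at 0.81.

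Of 12 other forkhead genes kept, 4 were lower and 0 higher in Id2-/-Id3-/- cells (all genes 10.1% and 14.1%), and 7 were lower and 0 higher in lymphomas (all genes 17.2% and 18.2%). *Foxk1* (-1.16), *Foxp3* (-1.07) and *Foxj2* (-1.06) were past 2-fold lower in Id2-/-Id3-/- cells, and *Foxn3* was at -0.98. *Foxq1* is also counted as lower in Id2-/-Id3-/- cells, but it averaged under the limit of 10 there and in controls. The lower ones in lymphomas include *Foxp2*, *Foxj1* and *Foxq1*, each of which averaged under 10 both in lymphomas and in controls. *Foxp3*, which marks regulatory T cells, averaged 280.5 in Id2-/-Id3-/- cells and 14.6 in lymphomas, against 591 in controls. Of 10 other KLF genes kept, 2 were higher and 2 lower in Id2-/-Id3-/- cells, where 14.1% of all genes were higher and 10.1% lower. The lower ones include *Klf12*, which averaged 3.05 in Id2-/-Id3-/- cells and 8.66 in controls, under the limit of 10 in both. *Klf9* averaged 298 in Id2-/-Id3-/- cells and 36.4 in controls (3.00), *Klf7* 169 and 842 (-2.31), *Klf6* had a ratio of -0.88 and *Klf10* of -0.86. In TFH cells *Klf6* was higher, like *Klf3*, at 2806 against 621 in controls.

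Of 15 genes for the KLF3 corepressor and the partners and targets of BACH2, only *Bach1* passed 2-fold in Id2-/-Id3-/- cells, at 382 against 836 in controls (-1.13), where 10.1% of all genes were lower. *Batf*, a factor of the same leucine zipper class, was at 0.72, and the corepressor genes *Sin3a* and *Ncor1* were at -0.70 and -0.60. In TFH cells 4 of the 15 were higher and 1 lower (all genes 11.8% and 9.8%), with *Batf* at 1088 against 327 in controls. In lymphomas 1 was higher and 1 lower (all genes 18.2% and 17.2%). *Bach2* was low in Id2-/-Id3-/- cells and lymphomas as well as in TFH cells. *Prdm1*, also on the list, averaged 128 in TFH cells, 32.1 in Id2-/-Id3-/- cells and 67.6 in lymphomas, against 38.3 in controls. Of 9 genes kept of the TOB and BTG family and its deadenylases, *Btg3* alone was higher in Id2-/-Id3-/- cells, at 386 against 88.4 in controls (2.12), where 14.1% of all genes were higher. *Btg1*, *Cnot1* and *Btg2* were at -0.88, -0.69 and 0.53.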

How the data were processed

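Poly(A) RNA from sorted cells was made into strand-specific libraries and sequenced (Illumina HiSeq). The authors aligned reads to mm10 with OSA in Array Studio, estimated counts with RSEM and normalized them with DESeq; tool versions: not given in the sources used here. For each of 5 groups the deposited table holds, as an abundance signal, the average normalized count, and 0 columns of values per sample. It also holds the authors' own fold changes, p-values and adjusted p-values (3 columns each for 4 comparisons with controls), which were not used.

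Genes that averaged 10 or more in 1 or more groups were kept (15536 of 39179). Ratios are log2 of the averages with a pseudocount of 1, and 2-fold was the limit for a call. The planned count model needed values per sample and was not run. Positions and exon lengths came from GENCODE M21, promoters from RefSeq (7 of the 8 genes matched). Beyond the 8 genes, at most 4 genes per list were named (largest ratio in Id2-/-Id3-/- cells over controls, average of at least 100), with the 3 genes nearest to *Foxo1*, *Foxp1* and *Bach2*. Some genes that this rule names are not reported here. Other markers and genes named were chosen after their values were seen. The genes and lists were chosen with earlier results of these data known. Scripts (Python 3.11.15, numpy 2.4.6, pandas 2.3.3, matplotlib 3.10.9) were tested on simulated data. Alternatives changed the scaling, the filter, the fold and the pseudocount.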

Additional observations from a re-analysis of the deposited data

How the results depend on the processing

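No paired analysis was possible because the table holds group averages only; for the same reason no library could be left out in turn and no test per library was run. Genes past 2-fold numbered 3757 in Id2-/-Id3-/- cells over controls, 5498 in lymphomas, 3352 in TFH cells and 1554 in the samples labelled Id3-/- over controls, 3959 in lymphomas over Id2-/-Id3-/- cells and 4420 in Id2-/-Id3-/- cells over TFH cells. With a limit of 1.5-fold these became 6619, 8494, 5662, 3153, 6580 and 7281, with no filter 7413, 9856, 6472, 4480, 9548 and 9200, and with a minimum of 100 they became 2030, 2909, 1773, 620, 1613 and 2322. A pseudocount of 10 gave, in the same order, 2550, 4020, 2297, 705, 2583 and 3101. No ratio of the 8 genes called past 2-fold changed sign. Scaling the groups to equal totals moved the median of all genes by -0.20 in lymphomas over controls and by -0.11 in lymphomas over Id2-/-Id3-/- cells; *Klf13* in Id2-/-Id3-/- cells then passed 2-fold (-1.08) and *Tob1* in lymphomas did not (0.82). At 1.5-fold 8 further ratios of these genes to controls were called, among them *Tob1* and *Klf13* in Id2-/-Id3-/- cells. The depth behind the averages is unknown.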

Other observations

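Of 14 other genes linked to T cell quiescence, 1 was lower past 2-fold in Id2-/-Id3-/- CD4SP cells over controls (10.1% of all genes). In lymphomas 6 were lower (17.2% of all genes), and the medians were -0.37 and -0.63. The 6 include *Foxj1*, which averaged 2.08 in lymphomas and 8.17 in controls, under the limit of 10 in both. *Vsir*, the gene of the checkpoint receptor VISTA, averaged 710.2 in Id2-/-Id3-/- cells, 797 in lymphomas, 4969.5 in TFH cells and 2635 in the samples labelled Id3-/-, against 2604 in controls. *Slfn2*, whose loss in mice leaves T cells without quiescence, averaged 2756 in Id2-/-Id3-/- cells, 2214 in lymphomas and 6093 in TFH cells, against 4735 in controls.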
